A study of Mus musculus with 8 samples.

Results

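The heat shock proteins and chaperones described here are 10 genes whose products fold, refold or hold other proteins: Hspa1a, Hspa1b and Hspa8 of the HSP70 family, Dnajb1 and Hsph1 that work with HSP70, Hsp90aa1 and Hsp90ab1 of cytosolic HSP90, Hspd1 and Hspe1 of the mitochondrial chaperonin, and the small heat shock protein Hspb1. Every probe set that the array annotation gives to one of these symbols or to an older name of it was taken, 25 of the 22690 probe sets on the array, and 24 of them, for 9 of the 10 genes, passed the filter on detection. Among the 25, the 2 for Hsp90ab1 and 3 of the 5 for Hspb1 were named only by the symbol column of the deposited export. The filter kept probe sets called Present (signal above the mismatch background) in at least 3 of the 8 arrays, and 16292 probe sets of the whole array passed it.

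The 8 samples are single mouse hearts at embryonic stage E10.5, 4 Dbh-/- and 4 Dbh+/+. Dbh encodes dopamine beta-hydroxylase, the enzyme that makes noradrenaline from dopamine, so that homozygous null embryos lack noradrenaline and adrenaline, and the labels call the Dbh-/- hearts adrenergic-deficient and the Dbh+/+ hearts control. Hearts were matched for age and size, and viability and heart rate were checked by ultrasound just before isolation, per the labels. Strain and sex are not given. Whole hearts hold muscle, endothelium, cushion cells and blood, and in such samples fewer cells of a type cannot be told apart from less RNA per cell. The hearts are called KO 1 to KO 4 and WT 1 to WT 4. Sample titles carry a number: 541 for KO 3, KO 4, WT 3 and WT 4, 569 for KO 1, KO 2 and WT 2, and 570 for WT 1. All 541 titles also carry the letter L and all other titles the letter R. The labels do not say what the number or the letter stands for.

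Heat shock proteins keep newly made and damaged proteins from clumping. HSP70 proteins bind exposed stretches of a client with the help of J-domain partners such as Dnajb1, and release it when a nucleotide exchange factor such as Hsph1 acts; HSP90 completes the folding of kinases and hormone receptors, and the Hspd1 and Hspe1 products form a barrel and its lid in mitochondria. Small heat shock proteins hold unfolded clients without using ATP and are abundant in muscle, where several bind the contractile apparatus. Hspa8 and Hsp90ab1 are the constitutive forms, while Hspa1a, Hspa1b and Hspb1 are strongly induced by heat and other stress through the heat shock factor Hsf1. Hsf1 binds as a trimer to inverted repeats of the triplet GAA.

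Promoter windows were looked up to show how that repeat is arranged in front of the members the results turn on. The windows run from 250 bases before to 50 bases after the annotated start in RefSeq (GRCm38.p6), and 7 of the 10 members had one. Hspa8, Hsp90aa1 and Hsp90ab1 are named here without a window. In the sequences, capitals mark each run of GAA and TTC triplets spaced by 2 bases, GAANNTTC or TTCNNGAA and their extensions; both forms were searched, which covers both strands. The Hspa1b window at chr17:34959189-34959488 on the minus strand, the Hspb1 window at chr5:135887669-135887968 on the plus strand and the Hspe1 window at chr1:55087898-55088197 on the plus strand read 5′ to 3′ as follows.
Hspa1b: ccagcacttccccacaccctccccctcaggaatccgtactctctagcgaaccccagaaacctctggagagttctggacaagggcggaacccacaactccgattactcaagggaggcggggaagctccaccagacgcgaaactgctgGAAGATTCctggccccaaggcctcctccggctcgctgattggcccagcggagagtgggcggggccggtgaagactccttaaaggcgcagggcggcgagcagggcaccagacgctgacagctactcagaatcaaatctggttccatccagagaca
Hspb1: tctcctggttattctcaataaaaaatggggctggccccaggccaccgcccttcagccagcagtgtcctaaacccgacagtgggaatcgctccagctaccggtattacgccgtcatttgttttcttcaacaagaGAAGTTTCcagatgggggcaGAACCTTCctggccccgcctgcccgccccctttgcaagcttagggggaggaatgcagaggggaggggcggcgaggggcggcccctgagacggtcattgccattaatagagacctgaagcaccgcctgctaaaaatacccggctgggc
Hspe1: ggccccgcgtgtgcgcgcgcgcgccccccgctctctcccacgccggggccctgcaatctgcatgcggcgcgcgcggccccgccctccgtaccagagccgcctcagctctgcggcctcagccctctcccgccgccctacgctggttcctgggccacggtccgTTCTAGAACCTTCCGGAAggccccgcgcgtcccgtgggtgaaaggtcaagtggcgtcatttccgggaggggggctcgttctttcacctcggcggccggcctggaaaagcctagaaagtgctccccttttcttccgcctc
The Hspa1b window holds 1 pair of triplets, 104 bases before the start, and the Hspb1 window holds 2 pairs, 117 and 97 bases before it. The Hspe1 window holds a run of 4 triplets, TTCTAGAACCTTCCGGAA, 89 bases before the start. Hspd1 is transcribed from the opposite strand of the same stretch of chromosome 1, the annotated genes overlap by 96 bases, and a second Hspd1 start site has the same 18 bases 144 bases before it. A pair of triplets is common: 15.1% of all 32851 promoter windows hold one, and 6 of the 7 members with a window do. Members are counted as genes with a match in any of their windows, and Hsph1, Dnajb1 and Hspd1 have 2 windows each. The shares over windows and over members are therefore not in the same unit. Members are also not separate cases. Hspd1 and Hspe1 share the same 18 bases, and the Hspa1a and Hspa1b windows are identical at 296 of 300 bases. A run of 3 or more is in 0.603% of windows and in 3 of the 7 members (Hsph1, Hspd1 and Hspe1), and a run of 4 is in 0.0244% of windows. Neither Dnajb1 window holds a pair. A match is a description of letters only.

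Before the results, some arrays differed in ways that touch them. The median signal over tested probe sets ran from 99.4 to 161.9 in KO hearts and from 101.1 to 146.3 in WT hearts, so the arrays were not on a common scale, and differences are given both on the values as deposited and after quantile normalization, which gives every array the same distribution. Present calls covered 66.4% to 71.6% of probe sets in KO hearts and 65.2% to 70.5% in WT hearts. The Dbh probe set was called Absent in all 8 hearts, so it is no check of the genotype labels. All 6 cardiomyocyte markers looked at were Present in all 8 hearts. The 5 liver and endoderm markers (Afp, Alb, Ttr, Apoa1 and Hnf4a) summed to 7301 in WT 3 and to 33.8 to 109.4 in the other 7 hearts, and all 5 were Present in WT 3.

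The first question was whether loss of Dbh changed chaperone expression. No member probe set differed between Dbh-/- and Dbh+/+ hearts after adjustment. Limma called 0 of the 24 at an adjusted p under 0.05, and 0 of all 16292 tested probe sets (0%), of which 217 (1.33%) had an unadjusted p under 0.05, 2 of them members, both probe sets of Hspa1b. After quantile normalization the counts were again 0 of 24 and 0 of 16292 (0%), with 350 (2.15%) at an unadjusted p under 0.05, 1 of them a member, and an unequal-variance test on linear signals called 0, with 103 at an unadjusted p under 0.05. The median log2 difference, KO minus WT, was -0.002 over the 24 member probe sets and 0.008 over all tested, and after quantile normalization 0.02 and -0.005. For 0 of the 24 member probe sets did the 4 KO hearts lie wholly above or below the 4 WT hearts, against 74 of all 16292 (0.454%).

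**Figure D1:**
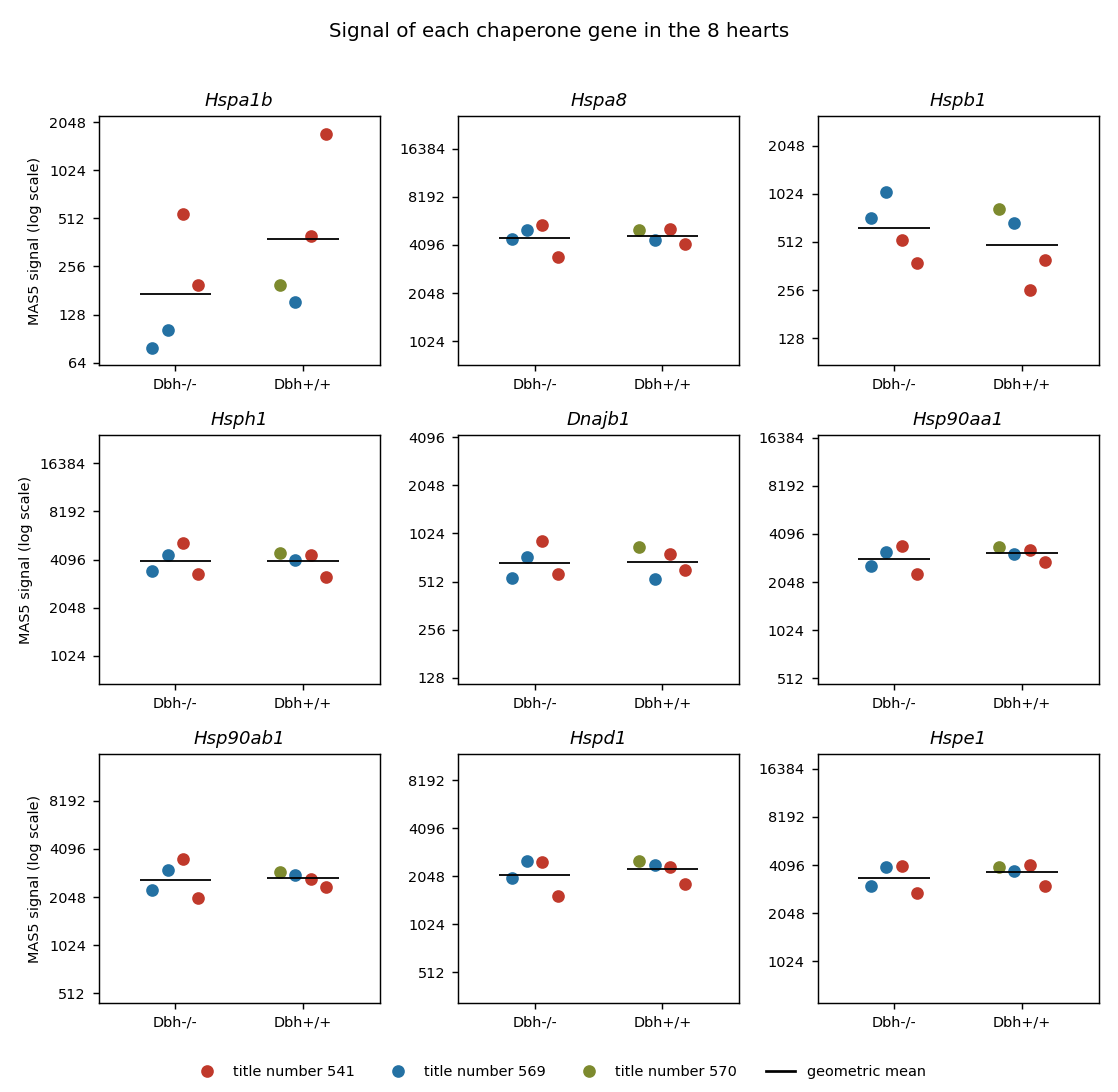
MAS5 signal (log scale, each panel spanning the same number of doublings) of the highest-signal tested probe set of 9 chaperone genes, with 4 Dbh-/- hearts at left and 4 Dbh+/+ hearts at right, colours for the title number and a line for the geometric mean. Hspa1b ranges from 79.2 to 1736 and Hspb1 from 257.6 to 1051, while the other 7 genes span less than a doubling between their lowest and highest hearts.

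Hspa1b encodes stress-inducible HSP70, and with Hspa1a, which lies next to it on chromosome 17 and encodes a nearly identical protein, it is the classical heat shock gene. Its highest-signal probe set, 1452318_a_at, had signals of 79.2, 102.3, 545.1 and 194.8 in KO 1 to KO 4, against 196.8, 154.5, 399.6 and 1736 in WT 1 to WT 4. The groups overlapped, and WT 4 was more than 3 times as high as any other heart. The KO hearts averaged 230.4 ± 215.7 and the WT hearts 621.8 ± 750.7 (SD, n = 4 each). The log2 difference was -1.08 ± 0.49 (SE; 95% interval -2.08 to -0.08), and -1.06 with an interval of -2.69 to 0.56 after quantile normalization; limma's unadjusted p was 0.0353 and 0.177, and its adjusted p was 1 in both. Without WT 4 it was -0.37, and -0.30 after quantile normalization.

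Fos, an immediate early gene, responds to handling and many stimuli. Its probe set had 2379 in WT 4 against 163.7 to 786.0 in the other hearts. The 7 immediate early genes looked at summed to 2686 to 4668 in KO hearts and 2294 to 7951 in WT hearts. WT 4 had the highest sum. Egr1 was also highest in WT 4, at 4540. Jun was lowest there, at 910.7 against 1004 to 1988 in the other hearts. Fosb, Junb, Atf3 and Ier2 in WT 4 lay within the range of the other hearts. The part of the immediate early genes in the Hspa1b signal was not tested.

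The other 2 Hspa1b probe sets were dim. Probe set 1427127_x_at had 6.34, 9.27, 33.0 and 9.97 in KO 1 to KO 4, against 36.1, 17.1, 25.3 and 96.8 in WT 1 to WT 4, and was Present in 2 KO and 3 WT hearts. Its difference of -0.87 ± 0.30 had the smallest unadjusted p of the members, 0.00622, with an adjusted p of 1 by limma. Without WT 4 it was -0.51, and -0.52 after quantile normalization. Probe set 1427126_at was Present in 3 hearts, and its signal of 58.7 in WT 4 stood against 0.675 to 10.7 in the other 7. The single Hspa1a probe set was Present only in WT 4, at 31.0, and Absent in the other 7 hearts at 1.24 to 19.4, so it was not tested. The promoter windows of Hspa1a and Hspa1b are identical at 296 of 300 bases, and probe sets of such close copies can take up each other's RNA, so signal from these genes cannot be assigned to 1 of them with confidence.

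Hspa8 encodes the constitutive HSP70. Its probe set 1455789_x_at had 4430, 5071, 5485 and 3445 in KO 1 to KO 4, against 5061, 4366, 5124 and 4174 in WT 1 to WT 4. The values overlapped fully and differed by -0.04 ± 0.18 on the log2 scale (95% interval -0.41 to 0.33), or -0.01 (-0.13 to 0.12) after quantile normalization. Probe sets 1420622_a_at and 1420623_x_at had differences of 0.02 and 0.02. The fourth Hspa8 probe set, 1431182_at, behaved differently across hearts and is taken up below with the title number; its genotype difference was -0.57 ± 0.44.

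Dnajb1, the J-domain partner that delivers clients to HSP70, had 537.8, 731.3, 917.4 and 567.2 in KO 1 to KO 4, against 836.2, 534.3, 761.8 and 607.5 in WT 1 to WT 4 (probe set 1416755_at). KO 3 and WT 1 were highest, and the difference was 0.00 ± 0.27 as deposited and 0.01 ± 0.14 after quantile normalization. Hsph1, an exchange factor for HSP70 also known as HSP110, had 3331 to 5219 in KO hearts and 3189 to 4525 in WT hearts on probe set 1425993_a_at, a difference of 0.01 ± 0.19 (95% interval -0.38 to 0.40). Its dimmer probe set 1423566_a_at differed by 0.21 ± 0.31, with a low signal of 132.9 in WT 4 and 260.5 to 272.9 in the other WT hearts. Without WT 4 that difference was -0.02.

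Hsp90aa1, the inducible form of cytosolic HSP90, had 2591, 3175, 3457 and 2303 in KO 1 to KO 4, against 3401, 3072, 3262 and 2722 in WT 1 to WT 4 (probe set 1438902_a_at). The groups overlapped, and the difference was -0.12 ± 0.20, or -0.09 (95% interval -0.23 to 0.05) after quantile normalization. Its other 2 probe sets differed by 0.06 and 0.10, so the 3 did not share a sign. Hsp90ab1, the constitutive form, had 2018 to 3520 in KO hearts and 2379 to 2941 in WT hearts (1416364_at), a difference of -0.03 ± 0.21. After quantile normalization it was 0.01, with an interval of -0.17 to 0.18.

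Hspd1 makes the subunit of the mitochondrial folding barrel. It had 1984, 2540, 2509 and 1533 in KO 1 to KO 4, against 2535, 2397, 2352 and 1825 in WT 1 to WT 4 (probe set 1426351_at). The lowest heart of each genotype was KO 4 and WT 4, both of title number 541. Their arrays also had low median signals, 105.4 and 101.1. KO 1, of title number 569, had the lowest median, 99.4, and the next-lowest KO value. After quantile normalization Hspd1 differed by -0.09 between 541 and the other hearts and was not called. The difference was -0.11 ± 0.22 as deposited and -0.06 (95% interval -0.26 to 0.13) after quantile normalization. Hspe1, the lid of the barrel, had 2749 to 4011 in KO hearts and 3021 to 4104 in WT hearts (1450668_s_at) and differed by -0.12 ± 0.19, or -0.08 (-0.23 to 0.07) after quantile normalization.

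Hspb1 encodes a small heat shock protein that binds actin filaments. Its highest-signal probe set, 1422943_a_at, had 717.9, 1051, 526.0 and 378.7 in KO 1 to KO 4, against 823.1, 675.0, 257.6 and 392.3 in WT 1 to WT 4. Low and high hearts occurred in both genotypes, and all 4 low values were in 541 hearts. The genotype difference was 0.34 ± 0.33 (95% interval -0.33 to 1.02), and all 5 Hspb1 probe sets had a difference above 0 (0.09 to 0.34), none past the test. Without WT 3, the heart with liver markers, the difference of 1422943_a_at was 0.049, and 0.035 after quantile normalization.

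**Figure D2:**
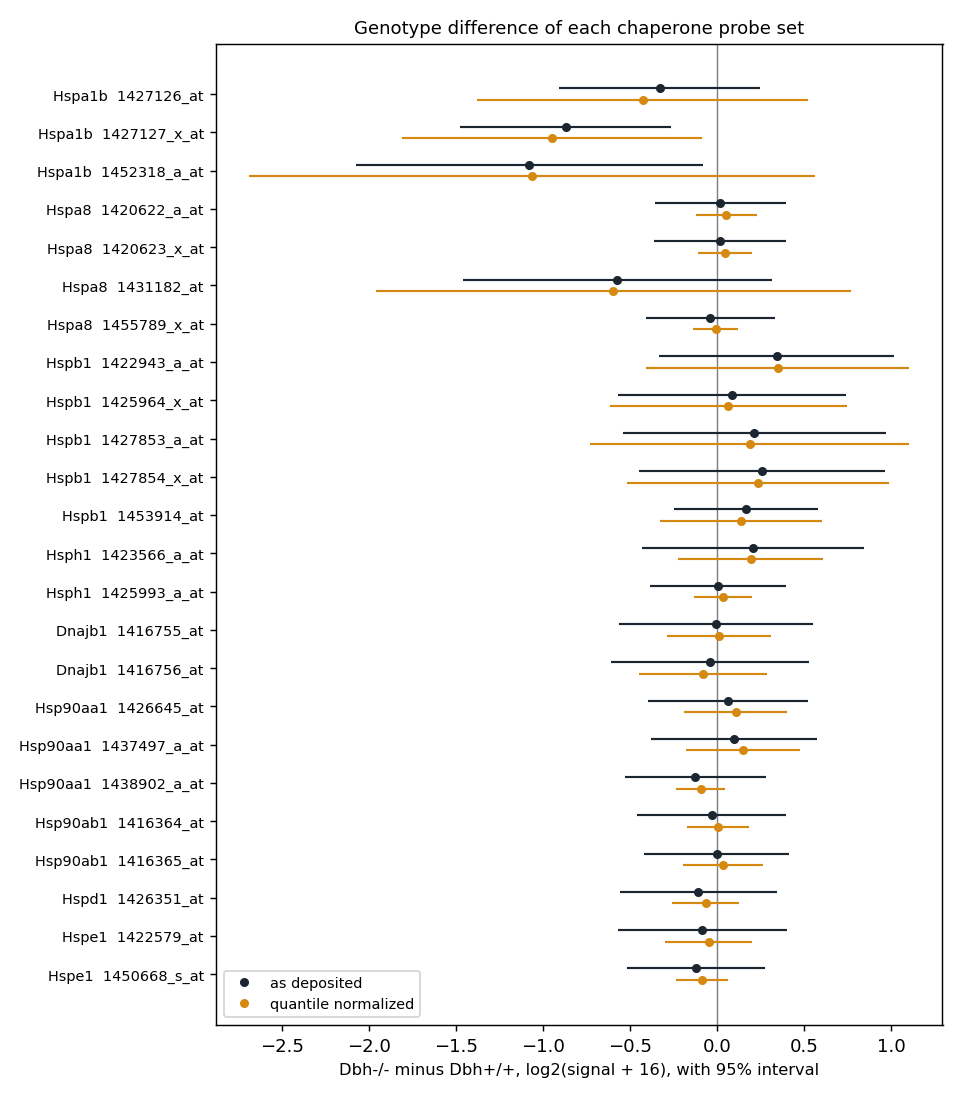
Difference between Dbh-/- and Dbh+/+ hearts on the log2(signal + 16) scale, with 95% interval from limma, for the 24 tested chaperone probe sets as deposited (black) and quantile normalized (orange). Probe sets of Hspd1, Hspe1 and Hsp90ab1 lie near 0, and the widest interval is that of Hspa1b 1452318_a_at after quantile normalization, from -2.69 to 0.56.

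Between the highest and the lowest heart the signal of Hspa8, 1455789_x_at, differed 1.59-fold as deposited and 1.15-fold after quantile normalization, that of Hsp90aa1, 1438902_a_at, 1.5-fold and 1.16-fold, and that of Hspe1, 1450668_s_at, 1.49-fold and 1.16-fold. The range of Hspa1b, 1452318_a_at, was 21.9-fold as deposited and 23.6-fold after quantile normalization, and that of Hspb1, 1422943_a_at, 4.08-fold and 3.55-fold. The half-width of the 95% interval of a genotype difference had a median over all tested probe sets of 0.57 as deposited and 0.41 after quantile normalization.

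In the authors' deposited table no member probe set had a p under 0.05; the lowest was 0.208, for Hspa1b 1427127_x_at, with a signed fold of 2.99, WT over KO. The authors' deposited table gives a signed fold of 2.70, WT over KO, for Hspa1b 1452318_a_at and of -1.24, negative where KO is higher, for Hspb1 1422943_a_at.

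In all, 4 pairs of members that work together were set against each other over the 8 hearts, on quantile normalized values. Hspd1 and Hspe1, transcribed divergently from 1 stretch of DNA, had a Pearson r of 0.65 (exact permutation p = 0.0945, adjusted over the 4 pairs 0.189) and a Spearman rho of 0.53 (exact p = 0.185, adjusted 0.246). As deposited r was 0.96, and without the 2 hearts farthest from the Hspd1 median it was 0.56. Hsp90aa1 and Hsp90ab1 had r = 0.40 (exact permutation p = 0.307, adjusted 0.410) and rho = 0.69 (exact p = 0.0694, adjusted 0.139), and r = 0.08 without the 2 farthest hearts. Hspa8 and Hsph1 had r = -0.14 (exact permutation p = 0.734, adjusted 0.734) and rho = -0.33 (exact p = 0.428, adjusted 0.428), and 0.86 as deposited.

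For Hspa1b and Dnajb1, rho was 0.86 (exact permutation p = 0.0107, adjusted 0.0429) and r was 0.64 (exact p = 0.0410, adjusted 0.164). The p-values of rho and of r were each adjusted over the 4 pairs, and not over both statistics together. As deposited rho was 0.57 and r was 0.25. Without the 2 hearts farthest from the Hspa1b median, WT 4 and KO 3, r was 0.65. With values centred within title numbers 541 and 569, over 7 hearts, r was -0.08 and rho was 0.07, with no test of these values.

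The genes whose pattern over the 8 hearts was most like that of Hspa1b (quantile normalized log2 values, 7802 other genes Present in every heart) were Nck1 (r = 0.99), an adaptor of receptor tyrosine kinase signalling, Ing2 (r = 0.97), a reader of histone methylation, and Ermp1 (r = 0.96). As deposited these were 0.73, 0.84 and 0.92. Nck1 spanned only 61.6 to 139.6 where Hspa1b spanned 79.2 to 1736. Most like Hspd1 were Lama2, a laminin chain of the muscle basement membrane (r = 0.94), Ehd2, a protein of caveolae (r = 0.93), and Brcc3, a deubiquitinase (r = 0.92). As the highest of 7802 correlations over 8 hearts, these are a description.

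**Figure D3:**
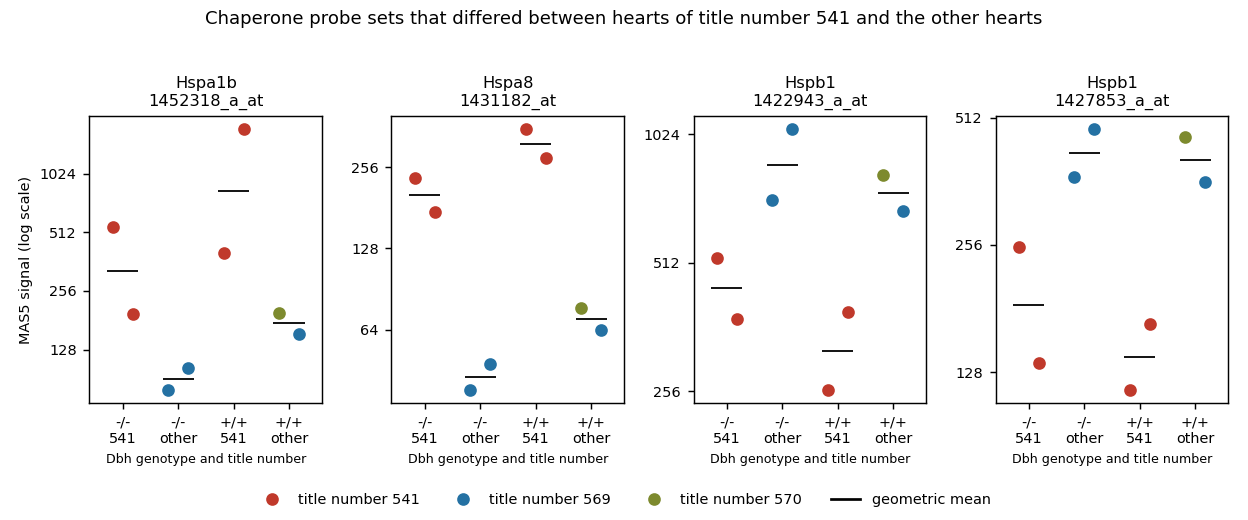
MAS5 signal (log scale) of 4 probe sets, with 541 hearts left of the other hearts within each genotype, colours for the title number and a line for the geometric mean of each pair. Hspa8 1431182_at and both Hspb1 probe sets separate 541 hearts from the others in both genotypes, while Hspa1b 1452318_a_at overlaps, KO 4 lying just below WT 1. The share of all tested probe sets that separate 541 hearts from the others was not counted.

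By title number, 1 probe set of Hspa1b, 1 of Hspa8 and 2 of Hspb1 differed both as deposited and after quantile normalization. There were 2 KO and 2 WT hearts on either side. The comparison, 541 hearts against the other 4 with genotype in the model, was chosen after the values had been seen. As deposited limma called 480 of 16292 probe sets (2.95%), 298 higher (1.83%) and 182 lower (1.12%) in 541 hearts, and after quantile normalization 494 (3.03%), 270 higher (1.66%) and 224 lower (1.37%), of which 184 were called in both. Of the 24 member probe sets 4 were called as deposited, 2 higher and 2 lower, and these 4 and 1 more lower one after quantile normalization. The fit as deposited gave each probe set the spread usual for its signal level and not its own (its prior degrees of freedom were infinite), so a difference counts as a change here only where it was called in both.

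Hspa8 1431182_at was higher in every 541 heart than in any other. It had 233.0 and 174.7 in KO 3 and KO 4 and 353.5 and 276.7 in WT 3 and WT 4, against 38.2 and 47.8 in KO 1 and KO 2 and 77.0 and 63.7 in WT 1 and WT 2. The log2 difference, 541 minus other, was 1.91 ± 0.31 (limma adjusted p = 2.17e-07) and 1.95 ± 0.14 after quantile normalization (adjusted p = 0.00103). It was called without each of the 8 hearts in turn under both scalings. Within KO hearts the difference was 1.89 and within WT hearts 1.93. The other 3 Hspa8 probe sets differed by -0.07 to 0.03 and were not called, so the 4 probe sets given to Hspa8 disagreed; the files do not say which part of the gene each one reads.

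Hspa1b 1452318_a_at averaged 719.0 ± 693.3 in 541 hearts and 133.2 ± 52.8 in the others (SD, n = 4 each). The lowest 541 heart, KO 4 at 194.8, lay below the highest other heart, WT 1 at 196.8. The difference was 1.93 ± 0.31 (limma adjusted p = 1.86e-07) and 1.97 ± 0.42 after quantile normalization (adjusted p = 0.0418). Within KO hearts it was 1.70 and within WT hearts 2.16. After quantile normalization it kept its call in only 2 of the 8 fits that left out a heart (adjusted p 0.00255 to 0.120, lost without KO 1, KO 2, KO 3, KO 4, WT 1 or WT 2), with differences of 1.44 to 2.38; as deposited it was called in all 8. The 2 dim Hspa1b probe sets were not called.

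Hspb1 was lower in 541 hearts. Probe set 1427853_a_at had 253.0 and 134.9 in KO 3 and KO 4 and 116.2 and 166.2 in WT 3 and WT 4, against 370.7 and 480.9 in KO 1 and KO 2 and 459.6 and 360.0 in WT 1 and WT 2. No 541 heart reached the level of any other heart, and the difference was -1.28 ± 0.31 (limma adjusted p = 0.00264), or -1.21 ± 0.18 after quantile normalization (adjusted p = 0.0179). Probe set 1422943_a_at averaged 388.6 ± 109.8 in 541 hearts and 816.8 ± 168.3 in the others (SD, n = 4 each), a difference of -1.06 ± 0.29 (adjusted p = 0.0133), or -0.95 ± 0.18 after quantile normalization (adjusted p = 0.0280).

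The remaining 3 Hspb1 probe sets differed by -0.95, -0.83 and -0.31, of which 1427854_x_at was called only after quantile normalization (adjusted p = 0.0469). Without WT 3, the heart with liver markers, the difference of 1427853_a_at was -1.16 (limma adjusted p = 0.105) and that of 1422943_a_at -0.92 (adjusted p = 0.287) as deposited, and both were called after quantile normalization. Calls were also lost as deposited without KO 4 for both probe sets, and for 1422943_a_at without KO 2, WT 1 or WT 2. After quantile normalization 1427853_a_at kept its call in 3 of the 8 fits that left out a heart and 1422943_a_at in 2.

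The other 6 tested genes did not pass the test by title number. Dnajb1, 1416755_at, differed by 0.11 ± 0.28 and Hsph1, 1425993_a_at, by -0.05 ± 0.20. Hsp90aa1, 1438902_a_at, differed by -0.07 ± 0.21, Hsp90ab1, 1416364_at, by -0.08 ± 0.22, Hspd1 by -0.22 ± 0.23 and Hspe1, 1450668_s_at, by -0.10 ± 0.20. After quantile normalization the difference of Dnajb1, 1416755_at, was 0.24 (95% interval -0.0025 to 0.47), and that of Hsp90aa1 was 0.21 (-0.05 to 0.47) on 1426645_at and 0.04 (-0.09 to 0.17) on 1438902_a_at. For Hsph1, 1425993_a_at, the interval was -0.18 to 0.15. For no member probe set did a difference in genotype effect between 541 and the other hearts pass the test: the smallest adjusted p of limma's interaction term was 0.300 as deposited, for Hspa1b 1427126_at, and 0.691 after quantile normalization.

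**Figure D4:**
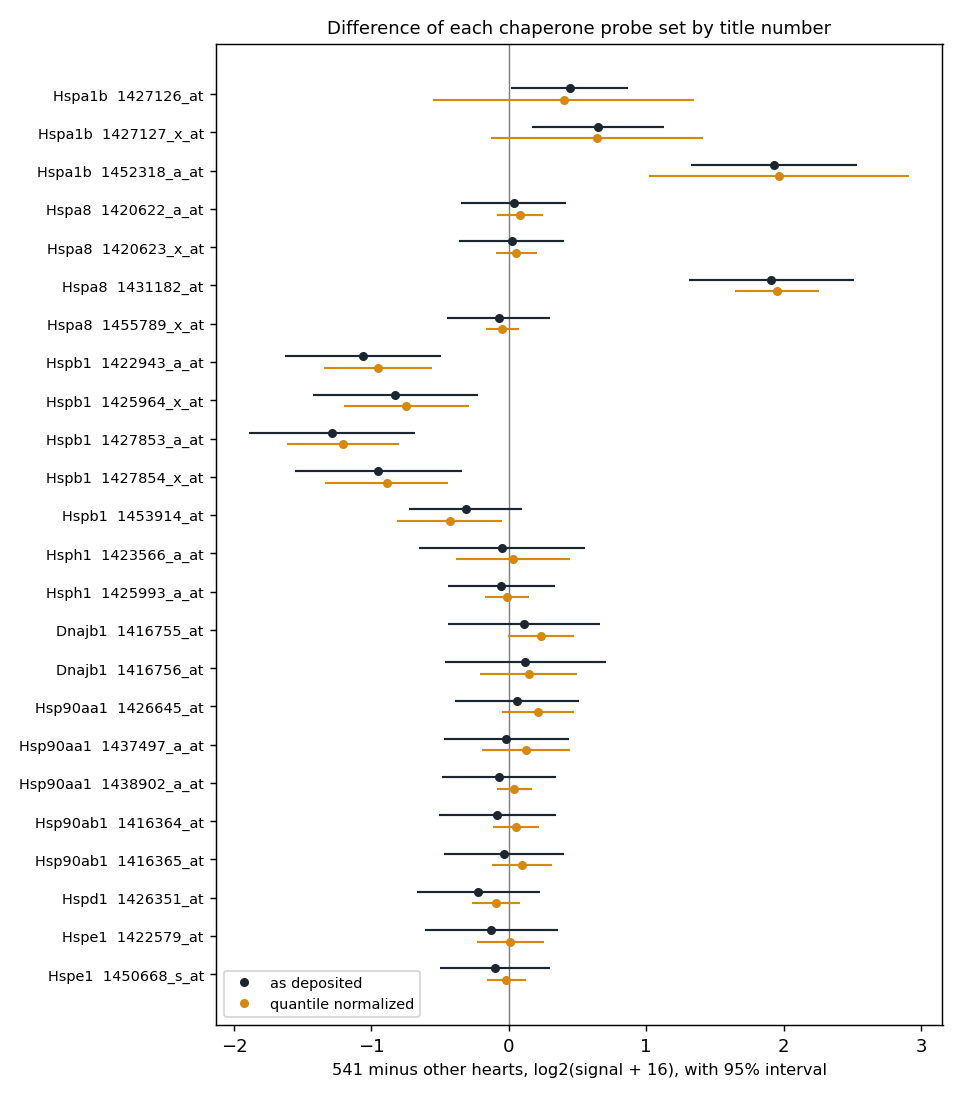
Difference between 541 hearts and the other hearts on the log2(signal + 16) scale, with 95% interval from limma, genotype in the model, for the 24 tested chaperone probe sets as deposited (black) and quantile normalized (orange). Hspa1b 1452318_a_at and Hspa8 1431182_at lie near 2, 4 of the 5 Hspb1 probe sets lie between -0.7 and -1.3, Hspb1 1453914_at lies at -0.31 as deposited, and the dim Hspa1b probe sets lie at 0.65 and 0.44.

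Some other measures also differed in part by title number, with sums over each marker list that overlapped between 541 hearts and the others. Their part in these differences was not tested. The 6 cardiomyocyte markers (Tnnt2, Tnni1, Actc1, Myh6, Myh7 and Nppa) summed to 13987 to 22214 in 541 hearts and 22000 to 28055 in the others. Tnni1, Myh6 and Myh7 were lower in every 541 heart than in any other, and Tnnt2, Actc1 and Nppa overlapped. For Myh6 the gap was narrow, 4052 in WT 4 against 4106 in KO 1. The share of all tested probe sets that separate 541 hearts in this way was not counted. Tnni1, the slow skeletal troponin I of embryonic heart, had 612.1 to 1085 in 541 hearts and 1659 to 2196 in the others, and Myh7, a myosin heavy chain, had 305.9 in WT 3 and 2431 to 4836 in the other 7 hearts. The 5 red blood cell markers summed to 7683 to 12584 in 541 hearts and 5607 to 8746 in the others. Most of that sum was Hbb-bh1, at 6043 to 9119 in 541 hearts and 5402 to 7239 in the others. In the same order, Alas2 had 258.8 to 1267 and 44.8 to 435.9, and Ermap 370.6 to 1276 and 88.4 to 725.3. Gata1 had 113.7 to 527.9 and 38.0 to 194.5, and Klf1 48.2 to 393.9 and 28.4 to 151.3. The 4 neuron and neural crest markers summed to 32.6 to 756.7 in 541 hearts and 28.2 to 215.4 in the others, the lowest 541 value being that of WT 4. Each of the 4 overlapped. In the same order, Pax3 had 10.9 to 203.6 and 0.891 to 22.1, and Dlx2 7.90 to 449.2 and 8.71 to 150.4. Nefm had 5.67 to 95.3 and 0.157 to 12.7, and Sox2 6.60 to 93.5 and 5.49 to 46.6. Among WT hearts Sox2 was highest in WT 1, which is not a 541 heart. The beta-actin 5'/3' ratio, a measure of RNA integrity, was 0.390, 0.401 and 0.407 in KO 3, KO 4 and WT 3, 0.517 in WT 4, and 0.483 to 0.527 in the other hearts.

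The wider chaperone network was described by 10 lists of 86 genes, of which 75 were tested. By genotype none of the 75 was called and none had an unadjusted limma p under 0.05 as deposited, against 1.45% of all 9473 genes tested; 45 were higher and 30 lower in KO hearts, with a median difference of 0.02 beside 0.02 over all genes. The smallest unadjusted p was that of Hmox1, haem oxygenase, at 120.4 ± 44.2 in KO hearts and 178.9 ± 38.5 in WT hearts (SD, n = 4 each), a log2 difference of -0.55 ± 0.31 (adjusted p = 1). After quantile normalization it was -0.60, with an unadjusted limma p of 0.0278 that did not pass the adjustment. Serpinh1, the collagen chaperone, was the other gene of that list, at -0.08.

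Among the partners of HSP70, all differences fell short of the test. Of 8 other HSP70 family genes, 4 were higher and 4 lower in KO hearts; Hspa5, the HSP70 of the endoplasmic reticulum, differed by -0.20 and Hspa12b, an endothelial member, by 0.39. Of 18 other J-domain genes 10 were higher and 8 lower, with Dnaja4 at 0.41 and Dnajc3, an inhibitor of eIF2alpha kinases, at -0.37. Of 12 exchange factors and partners 9 were higher and 3 lower, with Bag1 at 0.22 and Hspbp1 at 0.33.

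The same held for the rest. Of 10 HSP90 cochaperones 7 were higher and 3 lower, with Unc45a, a myosin chaperone, at 0.44 and Cdc37l1 at -0.21, and the organellar HSP90 genes Hsp90b1 and Trap1 were at -0.16 and -0.08. Of 13 genes of the cytosolic chaperonin TRiC and its feeder prefoldin 8 were higher and 5 lower, with Cct5 at 0.21 and Pfdn2 at -0.52. Hsf1, the factor that drives the heat shock response, had 125.9 ± 47.9 in KO hearts and 103.0 ± 22.2 in WT hearts (SD, n = 4 each), and Hsbp1, which binds it, differed by 0.16. The mitochondrial proteases Clpp and Lonp1 differed by -0.03 and 0.20.

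By title number, 2 of 5 other small heat shock proteins, Hspb2 and Hspb3, were called lower in 541 hearts under both scalings. The comparison was chosen, and these 2 genes named, after the values had been seen. Their calls are given for all 8 hearts only, with no fit that left out a heart. Over all tested probe sets the count called after quantile normalization ran from 2 to 3038 when 1 heart was left out. All 5 tested (Hspb2, Hspb3, Hspb7, Hspb8 and Cryab) were called lower in 541 hearts as deposited, where 1.27% of all tested genes were, and the 2 were called after quantile normalization as well, where 1.53% of genes were, while Hspb7, Hspb8 and Cryab were not. Hspb3, a muscle small heat shock protein, had 139.6 and 98.0 in KO 3 and KO 4 and 79.4 and 129.9 in WT 3 and WT 4, against 271.6 and 366.1 in KO 1 and KO 2 and 367.5 and 344.9 in WT 1 and WT 2. Its difference was -1.49 ± 0.31 (limma adjusted p = 2.24e-04) and -1.43 after quantile normalization (adjusted p = 0.0159). Hspb2, whose gene lies beside Cryab, differed by -1.15 and -1.09 (adjusted p = 0.0115 and 0.0335).

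Cryab, alpha-B crystallin, the most studied of the muscle small heat shock proteins, differed by -0.77 as deposited (limma adjusted p = 0.0314) and by -0.66 after quantile normalization (adjusted p = 0.0921). By genotype the same 5 genes had differences of -0.02 to 0.30, the highest for Hspb7, at 180.7 ± 82.9 in KO hearts and 151.1 ± 81.7 in WT hearts (SD, n = 4 each), and Hspb8 differed by 0.06. None of the other 70 tested genes of the lists was called by title number under either scaling.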

How the data were processed

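RNA from 8 single hearts was hybridised to Affymetrix Mouse 430A 2.0 arrays, 1 per heart, per the labels. The deposited intensity values are linear MAS5 signals, per the file headers; MAS5 version and scaling target are not given in the sources used here. Detection calls, the authors' signed fold score and p-value, the fraction of Present probe sets and the 5'/3' ratio were used as deposited, per the file headers. Gene names came from the platform annotation where it gives 1 symbol, otherwise from the deposited export.

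Differences were tested with limma 3.58.1 (R 4.3.3; lmFit, eBayes with trend, tested on simulated data) on log2(signal + 16), over probe sets Present in at least 3 of 8 arrays without controls, with Benjamini-Hochberg adjustment over all. Each gene is represented by its brightest tested probe set. Correlations used exact two-sided permutation of pairings. Members and lists were chosen with earlier results of these data known. Named were all members, the 2 genes of each list with the smallest genotype p, and the 3 genes most like Hspa1b and Hspd1; Hspb2, Hspb3 and Cryab were named after their values were seen. The labels name no litter, so p-values measure only the spread between these hearts. Precision is limited by there being 8 arrays.

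Alternatives were quantile normalization, median centring, pseudocounts of 1 and 64, no filter, Present in all 8, the title number as a block, 541 hearts only, each heart left out and an unequal-variance test.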

Additional observations from a re-analysis of the deposited data

Results flagged for a closer look

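Signals were looked at in 50 sets of 4 hearts (25 probe sets in 2 genotypes). In 5 of them a heart lay far from the other 3 of its genotype, relative to the range of the 4. Chance gives about 1 in 20 for independent sets of normally distributed values. These sets are not independent, since the probe sets share the same arrays. The rule was applied to linear signals, while limma used the log2 scale, so that share need not hold here. In 4 of the 5 that heart was WT 4. It was the highest WT heart for Hspa1b 1452318_a_at, at 1736 against 154.5 to 399.6, and for Hspa1b 1427126_at, at 58.7 against 0.675 to 8.67. It was the lowest WT heart for Hsph1 1423566_a_at, at 132.9 against 260.5 to 272.9, and for Hspe1 1422579_at, at 1119 against 1649 to 1695. These signals are as deposited, and WT 4 also had the lowest median signal of the WT arrays, at 101.1. KO 3 was the highest KO heart for Hspa1b 1427127_x_at, at 33.0 against 6.34 to 9.97.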

How the results depend on the processing

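The count of probe sets called between Dbh-/- and Dbh+/+ hearts, 0 as deposited, was 2 with Present calls in all 8 arrays, 40 with the title number as a replicate block, 60 with only title number 541, and 0 to 72 without each heart in turn (30 without KO 1 and 72 without WT 3), and 0 with quantile normalization, median centring, pseudocounts of 1 and 64, no filter, the unequal-variance test and quantile normalization with the block. No member gene was called in any of these. Hspa1b, Hspb1 and Hspe1 kept their direction throughout; without 1 heart Hspa1b ranged from -1.60 to -0.37, and from -1.49 to -0.30 after quantile normalization. Hspb1 ranged from 0.049 to 0.59, and from 0.035 to 0.53 after quantile normalization, lowest without WT 3. Differences near 0 changed sign: Dnajb1 was 0.012 with quantile normalization, 0.14 with the replicate block, 0.069 with quantile normalization and the block, 0.083 with only 541 and 0.0074 in the unequal-variance test, and Hsp90ab1 was 0.0070, 0.0050, 0.082 and 0.0012 with quantile normalization, the block, only 541 and the unequal-variance test. Hsph1 was -0.041 with median centring, and the mean over the gene's 3 probe sets was 0.012 for Hsp90aa1. Without 1 heart, as deposited and then after quantile normalization (added after the data were seen), Dnajb1 ranged from -0.15 to 0.10 and -0.075 to 0.077, Hsp90ab1 from -0.17 to 0.099 and -0.050 to 0.046, Hspa8 from -0.13 to 0.094 and -0.039 to 0.026, Hsph1 from -0.12 to 0.098 and -0.027 to 0.068, and Hspd1 from -0.21 to 0.044 and -0.10 to -0.017.

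Correlations as deposited were 0.96 for Hspd1 with Hspe1, 0.93 for Hsp90aa1 with Hsp90ab1, 0.25 for Hspa1b with Dnajb1 and 0.86 for Hspa8 with Hsph1. In the same order, they were 0.65, 0.40, 0.64 and -0.14 after quantile normalization. As deposited the arrays were not on a common scale, with median signals of 99.4 to 161.9. Centred within title number, Hspa1b with Dnajb1 was -0.081, and without the 2 farthest hearts Hsp90aa1 with Hsp90ab1 was 0.081 and Hspa8 with Hsph1 was 0.21.

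Between 541 and the other hearts, all settings chosen after the data were seen, 480 probe sets were called as deposited, 155 with no filter, 266 with Present calls in all 8 arrays, 130 to 776 without each heart in turn and 2 to 3038 without each heart after quantile normalization, the lowest without WT 1 and the highest without WT 4. Over those fits, as deposited and then after quantile normalization, Hspa1b 1452318_a_at ranged from 1.47 to 2.30 and 1.44 to 2.38. In the same order, Hspb1 1422943_a_at ranged from -1.20 to -0.92 and -1.13 to -0.77. Hspb1 1427853_a_at ranged from -1.48 to -1.15 and -1.36 to -1.03. The cause was not tested.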
